A study of Homo sapiens with 16 samples.

Results

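In MCF-10A, a human breast epithelial cell line that does not form tumours and that the labels give as luminal ductal, the peaks of H3K4me3 were compared with the peaks of H3K27me3. The comparison takes the 4 chromatin immunoprecipitation and sequencing (ChIP-seq) samples of these marks, with 2 replicates each that the labels call biological, out of 16 samples in the series. The other samples are 2 replicates of H3K9me2 in MCF-10A, the 3 marks in the metastatic breast cancer line MDA-MB-231, and 4 inputs, which were not analysed here. MCF-10A was grown from a laboratory stock in a medium with EGF, insulin, cholera toxin and hydrocortisone, the cells were taken before confluence, and no treatment or allele is named for either line. Each line stands for a single source of cells, so replicates describe the spread between cultures or preparations of that line and not between people. The identity of the cells was not checked against marker genes, because the files give positions on hg19 without gene names and gene models of that build were not used here.

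H3K4me3 is laid down at the start sites of active genes and of genes held ready for use. H3K27me3 is written by Polycomb repressive complex 2 and marks genes kept silent, often over broad domains that a peak caller breaks into many short pieces. Regions that carry both marks are known as bivalent and were first described at developmental genes in stem cells. Peaks come from a pool of cells, so both marks in the same cells and each mark in other cells cannot be told apart, and neither can fewer marked cells and less mark per cell.

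The marks covered a like length of the autosomes in pieces of different size. The H3K4me3 lists held 15015 and 16174 autosomal peaks in replicates 1 and 2, with median widths of 1216 and 1249 bp. The H3K27me3 lists held 28393 and 28371 peaks, with median widths of 629 and 622 bp. H3K27me3 peaks were thus more numerous and narrower in both replicates, and neither the numbers nor the widths overlapped between the marks. Covered length was 19.4 and 21.3 Mb for H3K4me3 and 21.2 and 21.0 Mb for H3K27me3, and these ranges overlapped. Two-sided exact permutation tests over libraries gave p = 0.3333 for number and for median width and p = 1 for covered length, and no p below 0.3333 is possible with 2 libraries on each side. The difference in mean peak number, H3K4me3 minus H3K27me3, was −12787.5. It was 6701.5 when only peaks with a score of at least 100 were counted, the score being the authors' own value per peak. That score was reached by 91.3% and 89.4% of H3K4me3 peaks and by 26.3% and 25.7% of H3K27me3 peaks.

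Replicates of H3K4me3 shared most of their bases and those of H3K27me3 a minority. The bases in both replicates over the bases in either (Jaccard index) came to 0.808 for H3K4me3 and 0.261 for H3K27me3. Of the H3K27me3 peaks, 45.6% of replicate 1 were found in replicate 2 and 45.8% of replicate 2 in replicate 1. The H3K4me3 reference used from here on is therefore the set of regions merged over both H3K4me3 lists and present in both, 13686 of 15834 merged regions. These regions had a median width of 1497 bp and covered 21.6 Mb, or 0.748% of the autosomes.

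Few H3K27me3 peaks met an H3K4me3 region. In replicate 1, 459 of 28393 peaks (1.62%, exact 95% Clopper-Pearson interval 1.47 to 1.77%) shared at least 1 base with one, and in replicate 2, 384 of 28371 (1.35%, 1.22 to 1.49%). The mean was 1.49% ± 0.186 (SD, n = 2), and 2.42% when a score of at least 100 was required in both marks. Intervals on shares of peaks cover counting error only. Among the 4 pairings of a single H3K4me3 list with a single H3K27me3 list the number ran from 358 peaks, for H3K4me3 replicate 1 with H3K27me3 replicate 2, to 618, for H3K4me3 replicate 2 with H3K27me3 replicate 1. Both pairings with H3K4me3 replicate 2 gave more overlapping peaks than both pairings with replicate 1, whichever H3K27me3 list was used.

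Where the marks met, an H3K27me3 peak usually lay across 1 edge of the H3K4me3 region. Of the overlapping peaks, 76 in replicate 1 and 55 in replicate 2 lay wholly inside the region, and 33 and 24 held a whole region. The remaining 350 (76.3%) and 305 (79.4%) lay across an edge. In replicate 2, 2 overlapping peaks met 2 or more regions. The median overlap was 447 and 421.5 bp, and 240 of 459 and 185 of 384 peaks shared at least 50% of their own length, which left 0.749% ± 0.137 (SD, n = 2) of all H3K27me3 peaks under that stricter rule. Coverage by H3K27me3 was lowest deep inside the regions. It was 1.53% and 1.29% of the outermost 100 bp of the H3K4me3 regions in replicates 1 and 2, and 0.181% and 0.137% of bases more than 1000 bp from an edge. Only wide regions have bases that deep. In regions at least 1500 bp wide the outermost 100 bp were covered at 0.539% and 0.5001% and bases 250 to 500 bp deep at 0.543% and 0.461%, with no maximum at the edge itself in replicate 1.

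Abutting peaks, with no shared base and at most 500 bp between the nearest edges, were fewer still. They numbered 171 (0.602%) in replicate 1 and 153 (0.539%) in replicate 2, with a mean of 0.571% ± 0.0445 (SD, n = 2). Without H3K4me3 replicate 1 the mean was 0.895%. The first 500 bp beside a region held more peaks than any later step of that length up to 5000 bp. Each of those later steps held 77 to 95 peaks in replicate 1 and 66 to 104 in replicate 2.

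Most H3K27me3 peaks lay more than 10 kb from H3K4me3, as did most bases of the autosomes. The median distance between nearest edges, counted as 0 where peaks shared a base, was 96.2 kb in replicate 1 and 98.3 kb in replicate 2 (mean 97.3 ± 1.43 kb, SD, n = 2). The lower and upper quartiles were 38.5 and 199.4 kb in replicate 1 and 39.6 and 199.1 kb in replicate 2. Within 10 kb, overlaps included, were 8.32% and 7.92% of the peaks (mean 8.12% ± 0.277, SD, n = 2), and beyond 250 kb were 5247 and 5240 peaks. Beyond 1 Mb were 0.919% and 0.948% of the peaks, and 388755372 bp of the 2879.8 Mb autosomal span. The peaks were thus not farther out than bases at large at that limit. Replicates differed far less in these quantiles than in which bases they covered. Distances tended to be shorter on chromosomes dense in H3K4me3. The median distance was 37.5 and 38.6 kb on chromosome 19, which has 16.8 H3K4me3 regions per Mb, and 150.6 and 147.2 kb on chromosome 18, which has 2.72. The sparsest, chromosome 13 with 2.18, had 89.8 and 103.7 kb. Across the 22 autosomes Spearman's rho between regions per Mb and median distance was −0.67 and −0.70 in replicates 1 and 2, a description over chromosomes that share the same libraries. Distance to the nearest region tends to fall with region density for any set of positions, so this says nothing particular to H3K27me3.

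**Figure D1:**
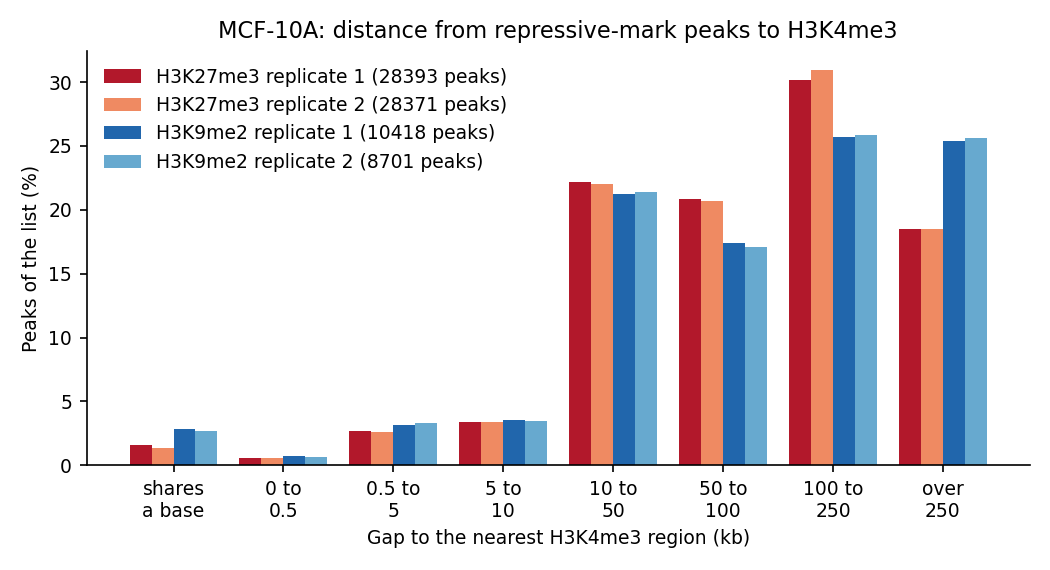
Share of autosomal peaks (%, bars from 0) by gap to the nearest H3K4me3 region in kb, for H3K27me3 (red) and H3K9me2 (blue) of MCF-10A, 1 bar per replicate. Bars of the same mark are nearly equal in each class, and the class from 100 to 250 kb is the highest for both marks.

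The distance classes are of unequal length, so coverage per base was measured in bands around the regions. H3K27me3 covered 0.737% and 0.729% of the autosomes in replicates 1 and 2. The autosomes are here the 2879.8 Mb up to the last peak on each chromosome, stretches without any peak included. Without such stretches the ratios inside the regions and close to them would be lower, while the band beyond 1 Mb would itself lose bases. Inside H3K4me3 regions coverage was 1.37 and 1.11 times these autosomal values (mean 1.24 ± 0.182, SD, n = 2). From 1 to 500 bp outside it was 1.99 and 1.77 times (mean 1.88 ± 0.156), and 76.1% of those covered bases in replicate 1 belonged to peaks that also overlap the region. Beyond 2000 bp and up to 3000 bp it was below the autosomal value, at 0.724 and 0.691 times. It was above it again farther out, at 1.58 and 1.57 times from 50 to 100 kb and 1.56 and 1.58 times from 100 to 250 kb. Beyond 1 Mb it was 0.0619 and 0.0634 times. The low band depended on the choice of H3K4me3 regions. Beyond 1000 bp and up to 5000 bp the mean was 0.8004 ± 0.0141 (SD, n = 2) around regions of both H3K4me3 lists, and 1.01 around every H3K4me3 peak of either list or around replicate 2 alone, while the excess within 500 bp and at 100 to 250 kb was present under each of these choices (2.71 and 1.45 times around every peak, 2.68 and 1.46 times around replicate 2 alone).

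**Figure D2:**
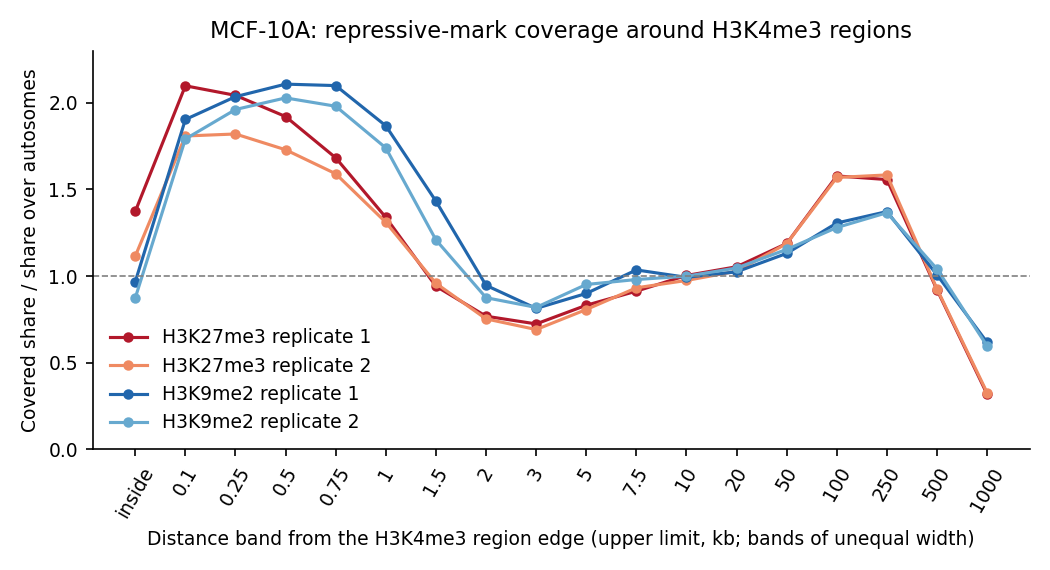
Coverage in bands of distance from H3K4me3 regions divided by coverage of all autosomes, for each replicate of H3K27me3 (red) and H3K9me2 (blue). The horizontal axis gives each band's upper limit in kb, with bands of unequal width, and the dashed line marks the autosomal value. Both marks peak within 1 kb outside the region, dip between 2 and 3 kb and are high again between 50 and 250 kb.

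The H3K27me3 peaks nearest to H3K4me3 were those most often seen in both replicates. Of the overlapping peaks, 69.7% (65.3 to 73.9%) of replicate 1 were found in replicate 2 and 80.5% (76.1 to 84.3%) of replicate 2 in replicate 1, against 45.6% and 45.8% of all peaks. Of the abutting peaks 63.2% and 68.0% were found in the other replicate. The share went down with each further class, to 38.4% and 38.2% beyond 250 kb. Peak width and score also differed between the nearest and the farthest class, though not step by step. Overlapping peaks had median widths of 797 and 824.5 bp against 610 and 606 bp beyond 250 kb, and 52.1% and 58.3% of them had a score of at least 100 against 20.4% and 20.6%. The part of width and score in the replicate shares was not tested. Seen from merged regions, 319 of 11395 H3K27me3 regions in both lists overlapped H3K4me3 (2.80%, 2.50 to 3.12%), against 0.695% of 30813 regions in a single list. Overlapping peaks were also found more often in the other replicate for H3K9me2 of MCF-10A (67.8% and 83.3%, against 58.1% and 69.7% of all). For H3K27me3 of MDA-MB-231 the shares were 67.7% and 28.8%, against 48.2% and 14.7% of all.

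**Figure D3:**
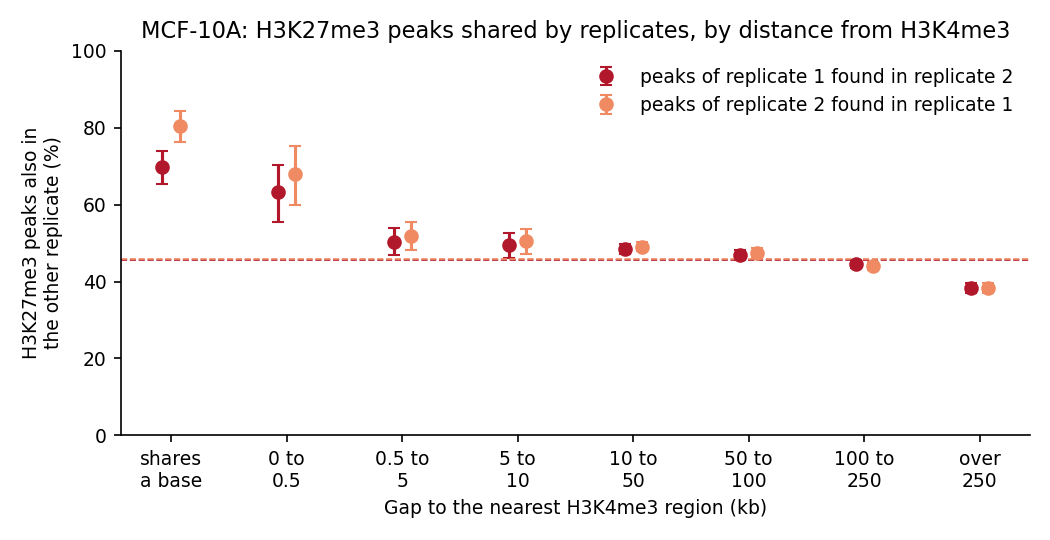
Share of H3K27me3 peaks that share a base with a peak of the other replicate (%), by gap to the nearest H3K4me3 region in kb. Points are the 2 replicates, bars are exact 95% intervals, and the dashed lines mark the shares over all peaks. Both replicates descend from 69.7% and 80.5% for overlapping peaks to 38.4% and 38.2% beyond 250 kb.

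From the H3K4me3 side the overlap was also small, and it concerned peaks of low score. Of the H3K4me3 peaks, 474 (3.16%) of replicate 1 and 680 (4.20%) of replicate 2 shared a base with an H3K27me3 peak of either list (mean 3.68% ± 0.741, SD, n = 2), and with a score of at least 100 in both marks the mean was 1.80%. These peaks had a median score of 186.48 in replicate 1 and 239.2 in replicate 2, against 1129 and 1776 for the other H3K4me3 peaks, and median widths of 779 and 787.5 bp against 1231 and 1272 bp. A further 150 (0.999%) and 201 (1.24%) abutted H3K27me3, and 12 and 17 of these did so on both flanks. Regions in a single H3K4me3 list overlapped H3K27me3 more often than regions in both. Of the 2148 regions in a single H3K4me3 list, with a median width of 426 bp, 8.94% overlapped H3K27me3 replicate 1 and 8.24% replicate 2. Of the 13686 in both, 2.94% and 2.53% did.

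A set of 272 H3K4me3 regions shared a base with H3K27me3 of both replicates, which is 1.99% of the 13686 regions. Another 204 met H3K27me3 of 1 replicate, 40 abutted H3K27me3 in both replicates, and 11883 had none within 10 kb in either. In 222 of the 272 the marks shared a base in all 4 pairings of lists. Over the 272 the smallest of the 4 overlaps had a median of 289 bp (quartiles 79.5 and 471 bp) and reached 1000 bp in 13 regions. Requiring a score of at least 100 in both marks left 112 such regions, and requiring an overlap of at least 50% left 94. The regions lay apart from each other. Within a limit of 100 kb, 252 stood alone and 10 pairs lay together.

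The share of regions with both marks went down as the H3K4me3 score went up. Regions were ranked by their H3K4me3 score in replicate 1 and cut into deciles. In the lowest decile 110 of 1369 regions (8.04%, 6.65 to 9.60%) carried H3K27me3 of both replicates, in the second 5.92%, in the third 2.49%, and in each of the top 4 deciles 1 or 2 regions. Ranking by the score of replicate 2 gave 6.50% and 6.72% in the lowest 2 deciles, and 1 to 3 regions in each of the top 4. Scores of 3100 were tied at the top of both lists. By width the shares were 4.09% and 4.67% in the 2 narrowest deciles and 0.511% and 0.731% in the 2 widest. H3K9me2, the other silencing mark measured in these cells, had no such slope, with 1.46% of the lowest and 2.63% of the highest score decile in its replicate 1. The difference between the marks across the deciles was not tested.

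**Figure D4:**
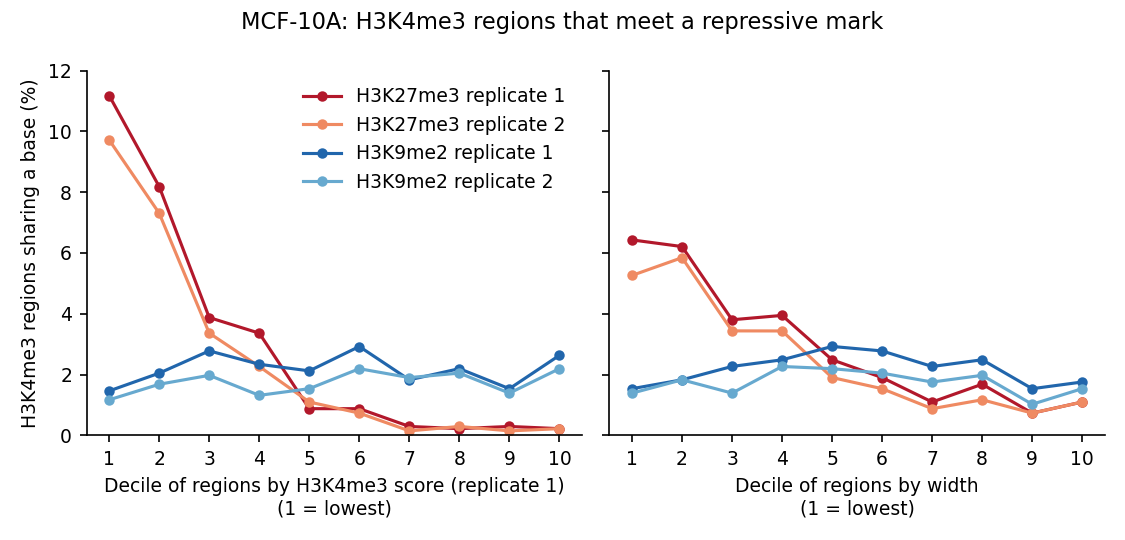
Share of H3K4me3 regions that share a base with H3K27me3 (red) or H3K9me2 (blue) of each replicate (%), by decile of H3K4me3 score in replicate 1 (left) and of width (right), with 1368 or 1369 regions per decile. H3K27me3 goes from 11.2% and 9.72% in the lowest score decile to 0.219% in the highest in both replicates, while H3K9me2 stays between 1.17% and 2.92%.

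The regions with both marks were narrower and scored lower than those away from H3K27me3. Their median width was 1084.5 bp against 1539 bp for the 11883 regions with no H3K27me3 within 10 kb, and their median H3K4me3 scores were 188.58 and 365.2 in replicates 1 and 2 against 1336 and 2342. In MDA-MB-231, a measure that played no part in choosing them, 201 of the 272 (73.9%, 68.3 to 79.0%) carried H3K4me3 in both lists, against 91.1% of the regions away from H3K27me3 and 89.9% of all. Among the 3167 regions with a score in the lowest 25% of both H3K4me3 lists the order was the other way and the intervals overlapped, with 70.6% (63.8 to 76.8%) of 201 regions with both marks against 66.8% (64.9 to 68.7%) of 2355 away from H3K27me3. H3K27me3 of MDA-MB-231 was found on 10.3% and 21.3% of the 272 regions in that line's replicates 1 and 2, against 0.648% and 1.30% away from H3K27me3 and 0.972% and 2.05% of all. Among the regions of low score in both lists the shares were 9.45% and 22.4% with both marks, 0.637% and 1.78% away from H3K27me3, and 1.48% and 3.88% of all. H3K9me2 of MCF-10A was on 2.21% and 1.47% of the 272 regions, close to the 2.18% and 1.74% of all regions.

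H3K27me3 also lay around the regions that carried it. Regions were picked by 1 H3K27me3 replicate and coverage was read from the other, so that the choice and the measurement came from different lists. The 402 regions that met replicate 1 were covered by replicate 2 at 31.2% inside, 32.2% from 1 to 500 bp outside, 8.18% beyond that and up to 5000 bp, and 2.17% from 10 to 50 kb. The 346 regions that met replicate 2 were covered by replicate 1 at 39.1%, 39.1%, 9.47% and 2.34%. Around the regions that did not meet H3K27me3 of the choosing replicate, coverage by the other was 0.114% and 0.266% inside and 0.403% and 0.431% between 500 and 5000 bp outside, below the autosomal 0.729% and 0.737%. The choice itself leaves out regions with H3K27me3, so low values inside and beside the rest are partly set by it. The classes came together with distance, at 1.33% and 1.25% against 1.24% and 1.23% from 100 to 250 kb.

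**Figure D5:**
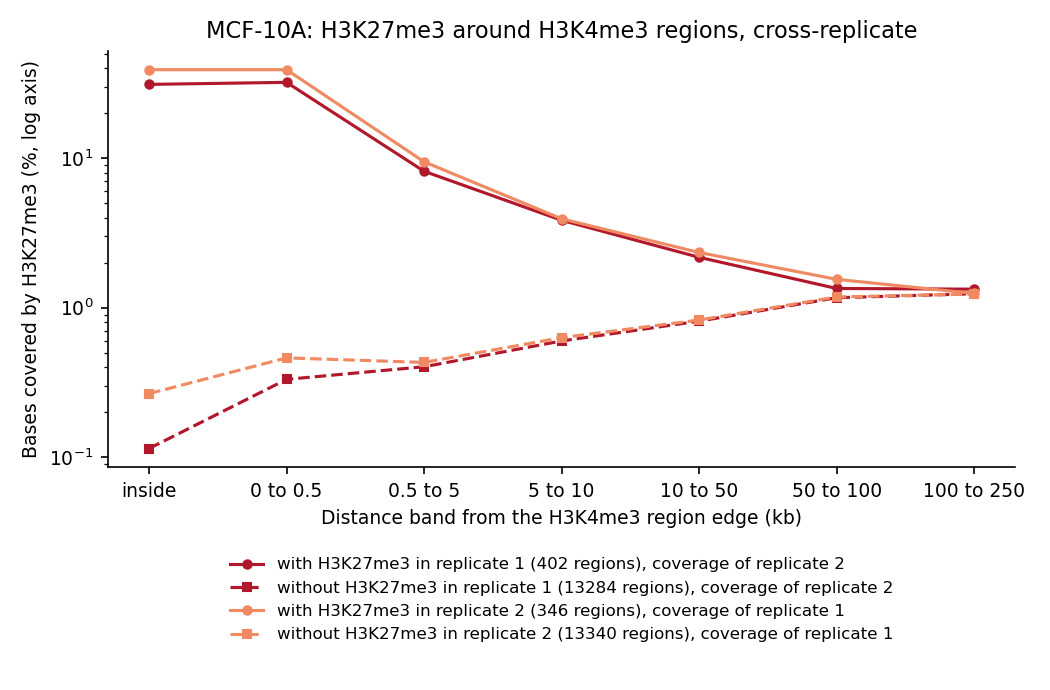
Share of bases covered by H3K27me3 (%, log axis) inside H3K4me3 regions and in bands outside them (kb), for regions with (solid) and without (dashed) an H3K27me3 peak in 1 replicate, measured in the other replicate. The solid lines start at 31.2% and 39.1% and the dashed lines at 0.114% and 0.266%, and all 4 reach 1.23% to 1.33% from 100 to 250 kb.

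Among the regions with the most bases under both marks were some with peaks in nearly every list. They were ranked by the smallest of the 4 overlaps between an H3K4me3 and an H3K27me3 list. First was chr9:69784917-69788081, 3165 bp wide on hg19, where the 4 overlaps were 2557, 2925, 2384 and 2714 bp. Next were chr2:90448586-90451144, with overlaps of 2352 to 2559 bp, and chr2:91669469-91671825, with 1873 to 2159 bp. These 3 regions had a peak in 8 of the 10 lists examined, H3K4me3 and H3K27me3 of both MDA-MB-231 replicates included, and neither H3K9me2 list. The region chr1:148927812-148929356 had a peak in 9 lists, both H3K9me2 lists among them. In this order, these 4 regions lay 4.21, 1.80, 0.575 and 6.31 Mb from a stretch of at least 2 Mb with no peak in any list, and chr1:121137604-121138941 lay 0.347 Mb from one of 21.1 Mb. Peaks in 8 or more lists were found in 15 of the 272 regions and in 17 of all 13686. The 272 hold 4 of the 10 lists by the way they were chosen. They therefore reach 8 lists more easily than other regions, and these counts are not a finding about them. The part of misplaced reads in such places was not tested. Of the 272 regions 16.2% lay within 5 Mb of a peak-free stretch against 14.8% of all regions. Without the regions with peaks in 8 or more lists, 257 with both marks were left, and 5.84% and 17.1% of these carried H3K27me3 of MDA-MB-231 replicates 1 and 2, against 10.3% and 21.3% of the 272. That choice removes regions partly by their MDA-MB-231 peaks. Without the regions within 5 Mb of a peak-free stretch the shares were 8.77% and 19.3% of 228.

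Other top regions carried both marks in MCF-10A and H3K4me3 without H3K27me3 in MDA-MB-231. These were chr5:122424416-122426572, chr8:97505557-97507790, chr1:121137604-121138941, chr7:122525367-122527256 and chr5:129239645-129241301. Of all 272 regions with both marks, 73.9% carried H3K4me3 in both MDA-MB-231 lists. H3K27me3 of MDA-MB-231 replicates 1 and 2 was on 10.3% and 21.3% of the 272. The state of the named regions in MDA-MB-231 is thus not particular to them. At chr5:122424416-122426572, 2157 bp wide, the overlaps were 1754, 1556, 2055 and 1857 bp, with H3K4me3 scores of 745.17 and 1708 and H3K27me3 scores of 472.33 and 420.3 in replicates 1 and 2. The nearest H3K27me3 peaks of MDA-MB-231 were 3652480 and 538257 bp away in replicates 1 and 2, whose lists held 8408 and 30238 peaks. H3K27me3 of MCF-10A continued beside this region, with the next peaks 713 and 1840 bp to the left and 2575 and 2343 bp to the right. At chr7:122525367-122527256 it stood alone, with the next H3K27me3 peaks 407729 and 569282 bp to the left and 642788 and 645257 bp to the right. The region chr4:16083968-16085814 went another way, with overlaps of 1442 to 1725 bp in MCF-10A and, in MDA-MB-231, the nearest H3K4me3 peaks 141319 and 141293 bp away and an H3K27me3 peak in replicate 2 only.

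Where the marks abutted, H3K27me3 lay on the same side of the region in both replicates. Of the 40 regions, 39 had this arrangement, and 1 had H3K27me3 on both flanks in both replicates. That one, chr3:184097694-184098044, was 351 bp wide, with gaps of 62 and 81 bp on the left and 337 and 404 bp on the right in H3K27me3 replicates 1 and 2. Its H3K4me3 scores were low, 91.11 and 62.15, against a median of 159.9 and 313.1 over the 40. The one-sided regions with the most H3K27me3 within 10 kb were chr15:53082128-53082862, with 8871 and 9206 bp, chr7:150671750-150672571, with 9712 and 8112 bp, chr5:139167224-139167927, with 6823 and 7308 bp, and chr19:49945604-49947230, with 6068 and 5819 bp. The median over the 40 was 1641 bp, taking the lower replicate of each.

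At the far end, the H3K27me3 regions of both lists most distant from any H3K4me3 peak were found on chromosomes 2, 4 and 14. Those at chr2:80530452-80531789 and chr2:80549752-80550465 lay 3.46 and 3.45 Mb from the nearest peak of H3K4me3. The next were chr4:180978960-180981009 at 2.08 Mb, chr14:48144778-48145910 at 1.91 Mb and chr2:50574024-50575036 at 1.82 Mb. All 5 had peaks in the 2 MCF-10A H3K27me3 lists and in none of the other 8. The peaks of H3K27me3 and the absence of MCF-10A H3K4me3 are set by the choice. For the other lists the share over all H3K27me3 regions is not given here. The regions at 3.46 and 3.45 Mb lay 0.372 and 0.391 Mb from a stretch of 4.01 Mb with no peak in any list. The region on chromosome 4 was the widest, at 2050 bp with scores of 193.34 and 224.6, and the others had scores of 55.65 to 151.95. The lowest scores in these H3K27me3 lists were 50.01 and 50.

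By chromosome, regions with both marks ranged from 0.870% of H3K4me3 regions on chromosome 20 (3 of 345, 0.180 to 2.52%) to 5.04% on chromosome 8 (25 of 496, 3.29 to 7.35%). Chromosome 7 followed with 3.797% (27 of 711). The order was not that of H3K27me3 coverage. Chromosome 8 was covered at 1.49% and 1.53% and chromosome 20 at 1.51% and 1.499% in replicates 1 and 2, and across the 22 autosomes Spearman's rho between coverage and the share with both marks was −0.17 and −0.12.

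H3K9me2 gave a comparison with another silencing mark against the same H3K4me3 regions. H3K9me2 peaks were wider (median 1606 and 1577 bp) and fewer (10418 and 8701), and 2.86% and 2.69% of them overlapped H3K4me3. The share for H3K27me3 was lower (1.49% against 2.77%, a difference of −1.29 percentage points), with no overlap between the 2 pairs of libraries, and the difference was −0.434 points with a score of at least 100. Within 10 kb it was also lower (8.12% against 10.2%), with a difference of −2.05 points, −0.680 points without H3K4me3 replicate 1 and −3.24 points with lists of equal length. Both exact permutation tests gave p = 0.3333, the smallest possible. Counted by bases inside H3K4me3 regions or by regions met, the order was the other way. Coverage inside H3K4me3 regions was 1.24 ± 0.182 times the autosomal value for H3K27me3 and 0.920 ± 0.0661 times for H3K9me2 (SD, n = 2). Of the bases of the mark, 1.03% and 0.834% lay in H3K4me3 regions for H3K27me3, and 0.724% and 0.654% for H3K9me2. The regions met numbered 402 and 346 for H3K27me3, against 299 and 238 for H3K9me2, whose lists were shorter. A longer list can meet more regions. These differences by bases and regions were not tested. The difference for abutting peaks had no fixed direction, at −0.112 points (exact permutation p = 0.3333) with both H3K4me3 lists and 0.108 points without H3K4me3 replicate 1. H3K9me2 overlaps took a smaller part of the peak. At least 50% of the peak was shared in 30 of 298 and 24 of 234 H3K9me2 peaks, and 4 and 2 of them lay wholly inside an H3K4me3 region.

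The same pair of marks was compared in MDA-MB-231, each line against its own H3K4me3 regions. There 1.18% and 0.724% of H3K27me3 peaks overlapped and 0.404% and 0.410% abutted H3K4me3. MCF-10A was higher by 0.534 points for overlaps and 0.164 points for abutting peaks, with no overlap between the lines' replicates (exact permutation p = 0.3333 for both). The H3K27me3 list of MDA-MB-231 replicate 1 held 8408 peaks against 30238 in replicate 2. The difference in overlaps was 0.308 points without MDA-MB-231 H3K27me3 replicate 2, 1.06 points without MCF-10A H3K4me3 replicate 1, and 0.155 points with lists of equal length. That in abutting peaks ran from 0.0284 points without MDA-MB-231 H3K4me3 replicate 2, and 0.0657 points without its replicate 1, to 0.273 and 0.488 points without MCF-10A H3K4me3 replicate 2 or 1. Shares within 10 kb overlapped between the lines, with a difference of 0.598 points (exact permutation p = 0.667) that was −0.610 or −0.189 points without MDA-MB-231 H3K4me3 replicate 1 or 2. Leaving out an H3K4me3 list makes every peak of the remaining list that line's reference, while the other line keeps the regions of both lists. Differences without an H3K4me3 list therefore set unlike references against each other. Depth cannot be read from the lists, so a longer list in 1 library and a higher read depth cannot be told apart.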

How the data were processed

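Peak lists of 10 ChIP-seq samples were used, the 4 of H3K4me3 and H3K27me3 in MCF-10A, and for comparison 2 of H3K9me2 in MCF-10A and 4 of H3K4me3 and H3K27me3 in MDA-MB-231. The authors deposited 1 list per replicate, with the position of each peak, its name and a score. No source used here gives the scale of this deposited score, which served to order peaks of the same list or to leave out low ones. Bowtie2, MACS 1.4, CASAVA 1.6, bedtools and the build hg19 stand in the submitters' processing notes without roles, and no source used here says how the inputs were used. Per the labels' protocols, replicates were also combined for further work, which is not the case in these lists. Read counts are not part of the lists, so the depth is unknown and the 2 replicates per group limit the precision.

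Samples were grouped from their titles. Peaks on chromosomes 1 to 22 were kept, which left out 1.00% to 3.97% of a list. Shares of the autosomes were taken over 2879.8 Mb, each chromosome counted to its last peak end in any list. Starts of the named regions are given counting from 1, and all measures were taken on the starts as deposited. The H3K4me3 reference was the set of regions merged over both H3K4me3 lists and present in both. Overlap meant at least 1 shared base, abutting meant no shared base and at most 500 bp between edges, and distance was counted between nearest edges. H3K4me3 peaks were set against every H3K27me3 peak of either list. Values per library were set against each other by exact permutation, two-sided. Intervals are exact Clopper-Pearson intervals at 95%. The regions named are the 10 with the most bases under both marks in the least overlapping pair of lists, the 5 abutting H3K27me3 in both replicates, first on both flanks and then with the most H3K27me3 within 10 kb, and the 5 H3K27me3 regions in both lists farthest from H3K4me3. Some of them are given in groups. The comparison, its measures and the rule for named regions were chosen with earlier results of these data known. Alternatives were other overlap, gap and distance limits, a score of at least 100, lists of equal length, chromosome X, every H3K4me3 peak as reference, the H3K4me3 list of the same replicate number, and each library left out. Leaving out the comparison libraries, and the regions with peaks in 8 or more lists or near a peak-free stretch, was added after seeing the data. The overlap and distance routines were tested on simulated data. Python 3.11.15, NumPy 2.4.6, pandas 2.3.3, SciPy 1.17.1 and matplotlib 3.10.9 were used. The planned count of gene starts by mark was not run, because no annotation of hg19 was used here.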

Additional observations from a re-analysis of the deposited data

Results flagged for a closer look

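The coverage of H3K4me3 regions by H3K27me3, relative to the autosomes, lay on opposite sides of 1 in the cell lines. It was 1.373 and 1.115 times the autosomal value in MCF-10A replicates 1 and 2, and 0.8812 and 0.5985 times in MDA-MB-231 replicates 1 and 2, each line measured against its own H3K4me3 regions. It is listed because every replicate of one line lay above the autosomal value and every replicate of the other below it. The difference between the lines was not tested. The autosomal value takes in stretches with no peak, and without them every ratio would be lower, so 1 is not a fixed dividing line. MDA-MB-231 replicate 1 moved to 1.04 with every H3K4me3 peak as reference and to 1.55 with a score of at least 100, while replicate 2 was 0.722 and 0.677 under these settings.

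Chromosome X was left out of the comparisons. There 7 of 503 H3K27me3 peaks of MCF-10A replicate 1 (1.39%, exact 95% interval 0.561 to 2.85%) and 6 of 584 of replicate 2 (1.03%, 0.378 to 2.22%) shared a base with an H3K4me3 region. On the autosomes the shares were 1.62% and 1.35% in replicates 1 and 2, which lie inside these intervals. The counts on chromosome X are listed because they come from data outside the comparison and exceed the 3 counts that a count of 0 would allow. That limit takes no account of the number of peaks.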

How the results depend on the processing

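Peak lists without read counts limit these results, since a place with no peak can be a place with few reads. Leaving out a library or changing a setting never changed the excess of H3K27me3 coverage within 500 bp or at 100 to 250 kb into a deficit. Requiring an overlap of at least 50% gave 0.749% of H3K27me3 peaks, 2.12% of H3K4me3 peaks and 94 regions with both marks. Abutting shares of H3K27me3 and H3K4me3 peaks were 0.125% and 0.283% at 100 bp and 0.877% and 1.71% at 1000 bp. Limits of 5 and 20 kb held 4.72% and 14.6% of H3K27me3 peaks, and peaks sharing no base had a median distance of 99.3 kb. With a score of at least 100, overlaps were 2.42% of H3K27me3 and 1.80% of H3K4me3 peaks, abutting H3K4me3 peaks 0.413%, the median distance 87.8 kb, the share within 10 kb 8.91%, regions with both marks 112, and coverage inside, to 500 bp and at 100 to 250 kb 1.57, 2.24 and 1.49 times the autosomal value. The differences H3K4me3 minus H3K27me3 became 6701.5 peaks and 10.9 Mb, and H3K27me3 minus H3K9me2 in abutting peaks became 0.224 points. With lists of equal length, in the same order, overlaps were 2.12% and 2.75%, abutting shares 0.639% and 0.756%, the median 91.8 kb, the share within 10 kb 8.89%, coverage 1.54, 2.295, 0.856 (1000 to 5000 bp) and 1.54 times, and the covered length difference 6.21 Mb. With chromosome X coverage from 1000 to 5000 bp was 0.822 times. With every H3K4me3 peak as reference, overlapping and abutting shares of H3K27me3 peaks were 2.12% and 0.905%, the median 83.3 kb, the share within 10 kb 10.95%, and coverage 1.58, 2.71, 1.01 and 1.45 times. The cause of these shifts was not tested.

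Whether libraries of the same replicate number share a culture or preparation is not known. The correlation between the marks' differences of replicate 1 from replicate 2 was 0.0108 over 2894 bins. Such a value cannot show it either way. The replicate block, each H3K27me3 list against the H3K4me3 list of its number, gave an abutting share of 0.817%, a median of 89.99 kb, 9.54% within 10 kb, and coverage of 2.32 (to 500 bp), 0.920 (1000 to 5000 bp) and 1.51 times (100 to 250 kb). Permutation within numbers has 0.5 as its smallest p and changed no direction.

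Leaving out each library gave ranges of 1.35% to 2.01% of H3K27me3 peaks overlapping, 0.539% to 0.895% abutting and 7.92% to 10.7% within 10 kb, a median distance of 85.4 to 98.3 kb, 2.64% to 4.20% of H3K4me3 peaks overlapping, up to 402 regions with both marks, and coverage of 1.11 to 1.56 inside, 1.77 to 2.68 to 500 bp, 0.790 to 1.01 from 1000 to 5000 bp and 1.46 to 1.58 times at 100 to 250 kb. The upper end of the coverage in the first 3 bands and of each share of H3K27me3 peaks came without H3K4me3 replicate 1. Leaving out an H3K4me3 list makes every peak of the remaining list the reference. The covered length difference ranged from −1.70 to 0.191 Mb, the abutting difference from H3K9me2 from −0.181 to 0.108 points, and that between the lines within 10 kb from −0.610 to 3.16 points. Both ends of this last range came without an H3K4me3 list of either line, and so from unlike references in the lines.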
